A study of Mus musculus with 36 samples.

Results

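Prostaglandins and leukotrienes are lipid mediators of pain, swelling and leukocyte recruitment that cells make from arachidonic acid. The transcripts described here are those of 10 genes of that pathway (Pla2g4a, Ptgs1, Ptgs2, Ptges, Ptgis, Hpgd, Ptger2, Ptger4, Alox5 and Alox5ap), found by gene name among the 55291 genes of the deposited count table, all 10 of which were present. The study profiled mouse knee joint tissue by RNA sequencing around damage to the ACL, the anterior cruciate ligament, a stabiliser of the knee whose rupture often precedes post-traumatic osteoarthritis. Of its 36 libraries, 9 carry column names that match sample titles and are used here, in 3 groups of 3 biological replicates, all collected at 24 h. The ACL_PKCi group, called inhibitor knees below, came from mice with ACL injury given an inhibitor of the protein kinase C (PKC) family, signalling kinases that respond to lipid messengers. The ACL group, called vehicle knees, came from mice with ACL injury given saline, and the sham knees came from mice without ACL injury. Strain, age, sex, the name and dose of the inhibitor and whether animals were pooled are not given in the sources used here.

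In this pathway, cytosolic phospholipase A2 (Pla2g4a) frees arachidonic acid from membranes, and the cyclooxygenases Ptgs1 (COX-1) and Ptgs2 (COX-2) turn it into prostaglandin H2. Terminal synthases such as Ptges and Ptgis then form prostaglandin E2 and prostacyclin, Hpgd inactivates prostaglandins, and prostaglandin E2 acts through receptors that include Ptger2 (EP2) and Ptger4 (EP4). In the parallel branch 5-lipoxygenase (Alox5), helped by its activating protein Alox5ap, starts leukotriene synthesis, mainly in neutrophils, macrophages and mast cells. Ptgs1 is known as the constitutive cyclooxygenase and Ptgs2 as the one induced by inflammation and mechanical stress, which is why non-steroidal anti-inflammatory drugs and COX-2 inhibitors are used for joint pain.

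The promoters of Ptgs2 and Ptges are shown because their transcripts were higher in every vehicle library than in every sham library. That of Ptgs1 is shown because it is the constitutive counterpart of Ptgs2. Each window runs from 250 bases before to 50 bases after the RefSeq start on GRCm38.p6, in the direction of the gene. RefSeq windows were at hand for 8 of the 10 genes. The Ptges window lies inside the counted Ptges gene model, which runs from 30889471 to 30929863, and not at its outer end. Capitals mark matches, on either strand, to 6 motifs searched, which were TGANTCA (AP-1), TGACGT (core of the cAMP response element), CACGTG (E-box), TTGCGCAA (C/EBP), GGGA and CC with any 4 bases between them (NF-kB) and GGAATG (TEAD).
Ptgs2 promoter, chr1:150099781-150100080, plus strand: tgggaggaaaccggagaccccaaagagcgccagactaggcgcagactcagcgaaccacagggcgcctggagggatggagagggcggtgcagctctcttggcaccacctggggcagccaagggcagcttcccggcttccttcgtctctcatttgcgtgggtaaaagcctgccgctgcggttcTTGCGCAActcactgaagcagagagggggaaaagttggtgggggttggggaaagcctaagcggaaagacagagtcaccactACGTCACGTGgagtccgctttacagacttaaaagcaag
Ptgs1 promoter, chr2:36230176-36230475, plus strand: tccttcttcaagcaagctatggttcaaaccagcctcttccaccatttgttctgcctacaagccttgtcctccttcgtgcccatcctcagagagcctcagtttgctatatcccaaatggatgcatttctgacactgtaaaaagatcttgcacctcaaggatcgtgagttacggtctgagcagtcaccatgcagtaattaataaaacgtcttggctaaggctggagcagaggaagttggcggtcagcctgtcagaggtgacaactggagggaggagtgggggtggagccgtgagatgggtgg
Ptges promoter, chr2:30903248-30903547, minus strand: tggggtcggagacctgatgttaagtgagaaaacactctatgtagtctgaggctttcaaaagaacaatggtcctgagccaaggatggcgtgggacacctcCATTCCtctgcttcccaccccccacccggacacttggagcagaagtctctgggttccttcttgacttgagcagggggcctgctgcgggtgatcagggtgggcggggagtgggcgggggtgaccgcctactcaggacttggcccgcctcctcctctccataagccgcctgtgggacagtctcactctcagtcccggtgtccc
The Ptgs2 window held the C/EBP letters starting at position -69 (counting the start base as 0), the cAMP response element core at position 12, on the opposite strand, and an E-box at position 16 that overlaps it. Of 32851 promoter windows of the same length, 0.183% held the C/EBP letters, 7.51% the cAMP response element core and 7.15% the E-box. The Ptges window held the TEAD letters at position -151, on the opposite strand, as did 14.7% of all windows, and the Ptgs1 window held none of the 6. The Alox5 window, which is not shown, held an NF-kB match at position -53, as did 20.7% of all windows, and the windows of Hpgd, Ptger2, Ptger4 and Pla2g4a held no match. The AP-1 letters, found in 7.81% of all windows, were in none of the 8. A match describes the letters only.

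Depth differed between libraries and most counts were not informative for these genes. The libraries held 124 to 202 M counts in all, of which 91.2% to 98.2% fell on genes of 7SL RNA, a structural RNA of the cell's protein export machinery, and protein-coding genes held 1.12 to 4.65 M. Effective library sizes relative to their mean ran from 0.53 in sham 3 to 2.57 in inhibitor 2. Inhibitor libraries 1 and 2 stood apart, with 91.5% and 91.2% of counts on 7SL RNA against 96.7% to 98.2% in the other 7 libraries. In inhibitor 1, skeletal muscle markers summed to 40227 normalised counts (3374 to 29961 in the other libraries), endothelial markers to 3264 (527 to 1184) and adipocyte markers to 2736 (454 to 1522). Cartilage markers summed to 2039 to 5521 in inhibitor libraries, 8907 to 11619 in vehicle libraries and 9290 to 27490 in sham libraries, and synovial and connective tissue fibroblast markers to 31615 to 69344, 87626 to 98876 and 89434 to 157435 in that order of groups. B lineage markers summed to 108 to 241 in inhibitor libraries, 348 to 364 in vehicle libraries and 436 to 481 in sham libraries. The part of these tissue differences in the results below was not tested. Markers of bone and of marrow neutrophils were also present in every group, and of all markers listed only Fcer1a, a mast cell marker, had no count. In such bulk tissue, fewer cells of a type and less RNA per cell cannot be told apart. The labels name biological replicates without saying how they were separated, so the tests measure the spread between these libraries.

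Values below are normalised counts, that is, counts scaled to a common effective library size, and log2 fold changes are those of the first-named group over the second from 1 edgeR fit across 13823 genes, with p-values adjusted over all of them and a threshold of 0.05. Of the 10 genes 9 were tested, because Ptger2 fell below the filter on low counts. None of the 9 passed the threshold by edgeR in any of the 3 comparisons. Of all tested genes 0.304% passed for vehicle against sham, 0.731% for inhibitor against vehicle and 3.95% where inhibitor knees were set against sham knees, so a count of 0 among 9 genes is close to the background in each. At an unadjusted p under 0.05 the edgeR counts were 3 of 9 for vehicle against sham, 0 of 9 for inhibitor against vehicle and 1 of 9 between inhibitor and sham knees, against 8.28%, 13.4% and 18.0% of all tested genes in the same order. DESeq2 on the same counts called 1 gene, Ptgs2, for vehicle against sham, and 0 in each of the other comparisons. The comparisons share libraries, since the inhibitor, vehicle and sham groups each enter a pair of them.

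Ptgs2 (chromosome 1 from 150100031 to 150108227, plus strand, mm10), the inducible cyclooxygenase, had the largest fitted change among the 9 tested genes. It was at 5.25, 45.6 and 28.6 normalised counts in inhibitor libraries 1, 2 and 3, at 101, 22.6 and 58.7 in vehicle libraries 1, 2 and 3, and at 5.81, 5.24 and 11.3 in sham libraries 1, 2 and 3. Every vehicle library lay above every sham library, while inhibitor 1 lay within the sham range and the other inhibitor libraries above it. The summed raw counts behind these values were 146 in inhibitor knees, 123 in vehicle knees and 15 in sham knees, so each sham value rests on 4 to 6 reads. Vehicle knees averaged 60.9 ± 39.4 and sham knees 7.46 ± 3.35 (SD, n = 3 each). The fitted difference was 8.30-fold, a log2 fold change of 3.05 (SE 0.81, unadjusted 95% interval 1.29 to 4.81), with an adjusted p of 0.2.

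That Ptgs2 result for vehicle against sham crossed the threshold under 5 of 17 alternatives, at nearly the same fold change, and did not under the other 12. The adjusted p was 0.00778 with DESeq2, 4.67e-06 with no filter on low counts, 0.00301 with only the vehicle and sham libraries in the fit, 0.00411 without inhibitor 1 and 0.00157 without inhibitor 1 and 2. Over all 17 alternatives the Ptgs2 log2 fold change ran from 2.48, without vehicle 1, to 3.48, without vehicle 2. Leaving out any 1 vehicle or sham library gave an adjusted p from 0.124, without vehicle 2, to 0.601, without vehicle 1. The replicate block gave 0.374. In inhibitor knees Ptgs2 averaged 26.5 ± 20.2 (SD, n = 3), and the fitted level was 2.23-fold below that of vehicle knees (log2 fold change -1.16, SE 0.67, interval -2.62 to 0.31, adjusted p = 0.491). The interval spans no difference as well as a level far below that of vehicle knees, and the log2 fold change moved to -0.65 without inhibitor 1, -1.93 without inhibitor 2 and -0.59 without vehicle 1. Inhibitor against sham gave a Ptgs2 log2 fold change of 1.90 (SE 0.80, interval 0.14 to 3.66, adjusted p = 0.239), which passed without inhibitor 1 (2.40, adjusted p = 0.0184) and with no filter (1.96, adjusted p = 0.0092), within a range of adjusted p up to 0.553.

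**Figure D1:**
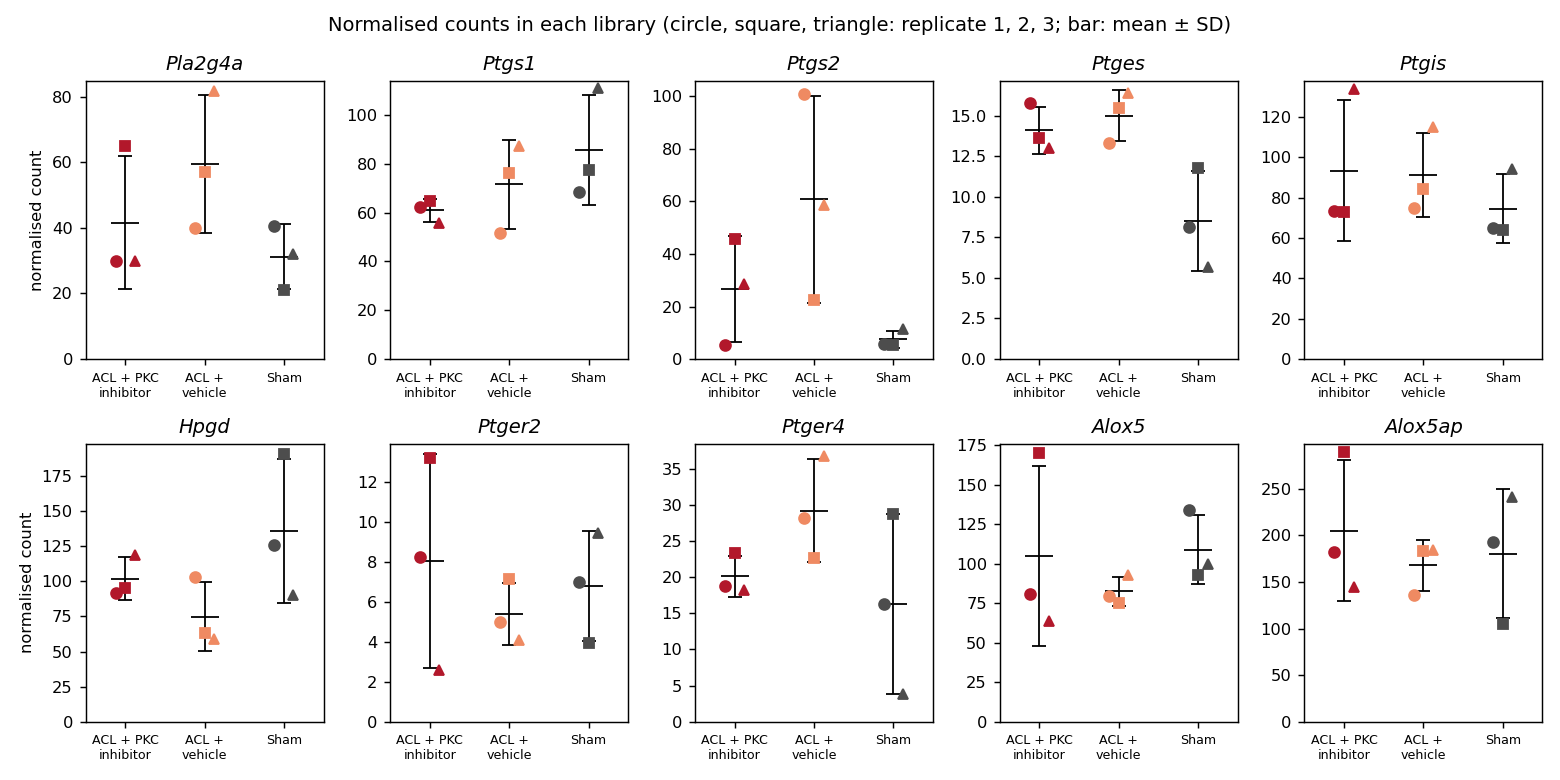
Normalised counts of the 10 genes in each library (y axis, linear, from 0), by group (x axis), with circles, squares and triangles for replicates 1, 2 and 3 and bars for the mean ± SD of 3 libraries. Ptgs2 lies at 22.6 to 101 in vehicle libraries and at 5.24 to 11.3 in sham libraries, while the highest Alox5 and Alox5ap points are both inhibitor 2.

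Ptgs1 (chromosome 2 from 36230426 to 36252272, plus strand), the constitutive cyclooxygenase, showed no such pattern. It had 62.3, 64.7 and 55.8 normalised counts in inhibitor libraries, 51.5, 76.1 and 87.3 in vehicle libraries, and 68.6, 77.3 and 111 in sham libraries. Every inhibitor library was below every sham library, and the vehicle libraries overlapped both. The Ptgs1 log2 fold change was -0.24 for vehicle against sham (SE 0.29, interval -0.85 to 0.37, adjusted p = 0.885), -0.23 for inhibitor against vehicle (SE 0.28, adjusted p = 0.762) and -0.48 for inhibitor against sham (SE 0.28, interval -1.08 to 0.13, adjusted p = 0.412). Lack of overlap in the lower direction was found in 11.6% of all tested genes for inhibitor against sham.

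The ratio of Ptgs2 to Ptgs1 counts within a library, which needs no scaling between libraries, was on average nearest to equal counts in vehicle knees. Vehicle libraries lay on both sides of equal counts, and the single library nearest to them was inhibitor 2. The counts were not corrected for exon length, so equal counts are not equal levels. Ptgs2 made up 7.78%, 41.3% and 33.8% of the summed counts of both genes in inhibitor libraries 1, 2 and 3, 66.3%, 22.9% and 40.2% in vehicle libraries, and 7.81%, 6.35% and 9.23% in sham libraries. On the log2 scale, with 0.5 added to each count, the Ptgs2 to Ptgs1 ratio averaged -1.64 ± 1.60 in inhibitor knees, -0.44 ± 1.35 in vehicle knees and -3.45 ± 0.27 in sham knees (SD, n = 3 each). Vehicle minus sham was 3.01 with no overlap between the libraries (two-sided exact permutation p = 0.1, the smallest that 3 against 3 libraries can give, adjusted p = 0.2 over 6 such tests). Inhibitor minus vehicle was -1.20 (exact permutation p = 0.5, adjusted p = 0.5) and inhibitor minus sham 1.81 (exact permutation p = 0.3, adjusted p = 0.36), both with overlap, since inhibitor 1 had the ratio of a sham library.

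Pla2g4a (chromosome 1 from 149829618 to 149961290, minus strand), which supplies the arachidonic acid, lies 139 kb from Ptgs2, with 3 gene models between them that held 4 counts in all. It had 30.0, 65.1 and 29.9 normalised counts in inhibitor libraries, 39.9, 57.1 and 81.8 in vehicle libraries, and 40.7, 21 and 32.1 in sham libraries. Vehicle 2 and 3 were above all sham libraries, and vehicle 1 was just under sham 1. The Pla2g4a log2 fold change was 0.93 for vehicle against sham (SE 0.42, interval 0.04 to 1.82, adjusted p = 0.57), -0.49 for inhibitor against vehicle (SE 0.40, interval -1.34 to 0.36, adjusted p = 0.623) and 0.44 for inhibitor against sham (adjusted p = 0.625). The last value rests on inhibitor 2, without which it was -0.07.

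Among the synthases, Ptges (chromosome 2 from 30889471 to 30929863, minus strand), which encodes the inducible microsomal prostaglandin E synthase, had few reads. There were 10 to 35 reads in inhibitor libraries, 8 to 13 in vehicle libraries and 3 to 9 in sham libraries, too few to judge the spread within a group. The normalised counts of Ptges were 15.8, 13.6 and 13.0 in inhibitor libraries, 13.3, 15.5 and 16.4 in vehicle libraries, and 8.14, 11.8 and 5.66 in sham libraries. All 6 injured libraries were above all sham libraries, and both injured groups overlapped. The log2 fold change of Ptges was 0.79 for vehicle against sham (SE 0.58, interval -0.43 to 2.01, adjusted p = 0.778), 0.70 for inhibitor against sham (SE 0.56, adjusted p = 0.554) and -0.09 for inhibitor against vehicle (SE 0.53, interval -1.22 to 1.04, adjusted p = 0.961). Libraries without overlap in the higher direction made up 8.20% of all tested genes for vehicle against sham and 11.2% for inhibitor against sham. Ptgis (chromosome 2 from 167191805 to 167240604, minus strand), the prostacyclin synthase, had 73.5, 72.8 and 134 in inhibitor libraries, 74.8, 84.4 and 115 in vehicle libraries, and 65.1, 64.2 and 94.3 in sham libraries, with overlap throughout. Its log2 fold change was 0.31 for vehicle against sham (SE 0.31, adjusted p = 0.86) and 0.01 for inhibitor against vehicle (SE 0.30, interval -0.62 to 0.64, adjusted p = 0.993).

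Hpgd (chromosome 8 from 56294585 to 56321043, plus strand), the dehydrogenase that inactivates prostaglandins, had its lowest values in vehicle knees. Its normalised counts were 91.5, 95 and 119 in inhibitor libraries, 103, 63.0 and 58.7 in vehicle libraries, and 126, 191 and 90.5 in sham libraries. Vehicle 2 and 3 were below every other library, and vehicle 1 lay inside the sham range. The log2 fold change of Hpgd was -0.88 for vehicle against sham (SE 0.30, interval -1.52 to -0.23, adjusted p = 0.344), 0.45 for inhibitor against vehicle (SE 0.30, interval -0.19 to 1.09, adjusted p = 0.54) and -0.43 for inhibitor against sham (SE 0.29, adjusted p = 0.477). None of its 17 alternatives for vehicle against sham changed the sign or passed the threshold, over a range of -1.16 to -0.55 and of adjusted p from 0.13 to 0.806.

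The ratio of the prostaglandin E synthase transcript to the inactivating enzyme transcript separated sham knees from both injured groups. Log2 Ptges to Hpgd was -2.51, -2.78 and -3.14 in inhibitor libraries 1, 2 and 3, -2.88, -1.99 and -1.80 in vehicle libraries, and -3.85, -3.95 and -3.79 in sham libraries. The sham values spanned a much narrower range than those of either injured group and lay below all 6 of them. They rest on 7, 9 and 3 Ptges reads in sham libraries 1, 2 and 3, too few to read that narrow range as a trait of sham knees. Vehicle minus sham was 1.64 (exact permutation p = 0.1, adjusted p = 0.2) and inhibitor minus sham 1.05 (exact permutation p = 0.1, adjusted p = 0.2), each at the smallest p the design allows. Inhibitor minus vehicle was -0.59 with overlap (exact permutation p = 0.3, adjusted p = 0.36).

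**Figure D2:**
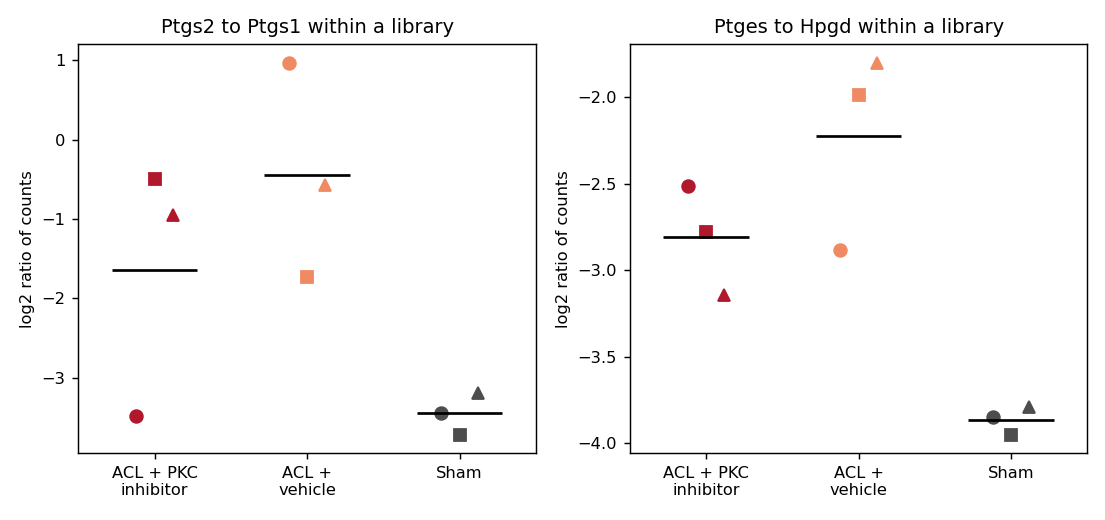
Log2 ratio of counts within a library (y axes) of Ptgs2 to Ptgs1, left, and of Ptges to Hpgd, right, by group (x axis), with circles, squares and triangles for replicates 1, 2 and 3 and a bar for the group mean. Sham libraries lie between -3.72 and -3.19 on the left and between -3.95 and -3.79 on the right, and inhibitor 1 lies at -3.48 on the left, within the sham range.

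Both prostaglandin E2 receptors had low counts. Ptger4 (chromosome 15 from 5206661 to 5244187, minus strand), which signals through cAMP, had 18.8, 23.4 and 18.2 normalised counts in inhibitor libraries, 28.2, 22.6 and 36.8 in vehicle libraries, and 16.3, 28.8 and 3.77 in sham libraries. The groups overlapped and the lowest value, in sham 3, rests on 2 reads. The Ptger4 log2 fold change was 0.79 for vehicle against sham (SE 0.54, interval -0.36 to 1.94, adjusted p = 0.757) and -0.52 for inhibitor against vehicle (SE 0.52, adjusted p = 0.694). Ptger2 (chromosome 14 from 44988195 to 45003820, plus strand), the other cAMP-coupled receptor, had 11, 34 and 2 raw counts in inhibitor libraries, 3, 6 and 3 in vehicle libraries, and 6, 3 and 5 in sham libraries. Those counts gave 8.03 ± 5.33, 5.40 ± 1.56 and 6.78 ± 2.75 normalised counts in inhibitor, vehicle and sham knees (SD, n = 3 each). Ptger2 was not tested in the main fit, and no fold change is given for it.

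Alox5 (chromosome 6 from 116410077 to 116461178, minus strand), the leukotriene-forming lipoxygenase, had its lowest mean in vehicle knees, where Ptgs2 had its highest. Its means in inhibitor and sham knees, 105 and 109, were close (log2 fold change -0.03 for inhibitor against sham, SE 0.32, adjusted p = 0.972). Its normalised counts were 81.0, 170 and 63.6 in inhibitor libraries, 79.8, 74.9 and 92.8 in vehicle libraries, and 134, 93.1 and 100 in sham libraries. Every vehicle library was below every sham library, by a margin of less than 1 count at the closest pair, and lack of overlap in that direction was found in 8.76% of all tested genes. The Alox5 log2 fold change was -0.41 for vehicle against sham (SE 0.33, interval -1.11 to 0.30, adjusted p = 0.812) and 0.37 for inhibitor against vehicle (SE 0.32, adjusted p = 0.649). The second value rests on inhibitor 2, without which it was -0.20.

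Alox5ap (chromosome 5 from 149264767 to 149288153, plus strand), the membrane protein that presents arachidonic acid to Alox5, had 182, 289 and 144 normalised counts in inhibitor libraries, 136, 183 and 184 in vehicle libraries, and 193, 105 and 241 in sham libraries. The groups overlapped and inhibitor 2 was again the highest library. Its log2 fold change was -0.09 for vehicle against sham (SE 0.31, interval -0.76 to 0.58, adjusted p = 0.974) and 0.30 for inhibitor against vehicle (adjusted p = 0.711), the second of which was -0.06 without inhibitor 2. Neutrophils express both genes, and the 14 neutrophil markers summed to 10511, 19638 and 9304 normalised counts in inhibitor libraries 1, 2 and 3, 11944, 9464 and 10799 in vehicle libraries, and 20685, 16936 and 23236 in sham libraries. None of these 14 markers was without counts, and 2 of 14 had a positive log2 fold change for vehicle against sham, with a median of -0.87. The 14 monocyte and macrophage markers summed to 3385 to 5347 in inhibitor libraries, 3094 to 4647 in vehicle libraries and 3055 to 3745 in sham libraries, with inhibitor 2 the highest. Within the inhibitor group neutrophil markers were highest in inhibitor 2, and they were lower in vehicle than in sham libraries, as Alox5 was. Their sums in inhibitor 1 and 3 were near those of vehicle libraries, and Alox5ap overlapped between vehicle and sham libraries. The part of these markers in the Alox5 and Alox5ap values was not tested.

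**Figure D3:**
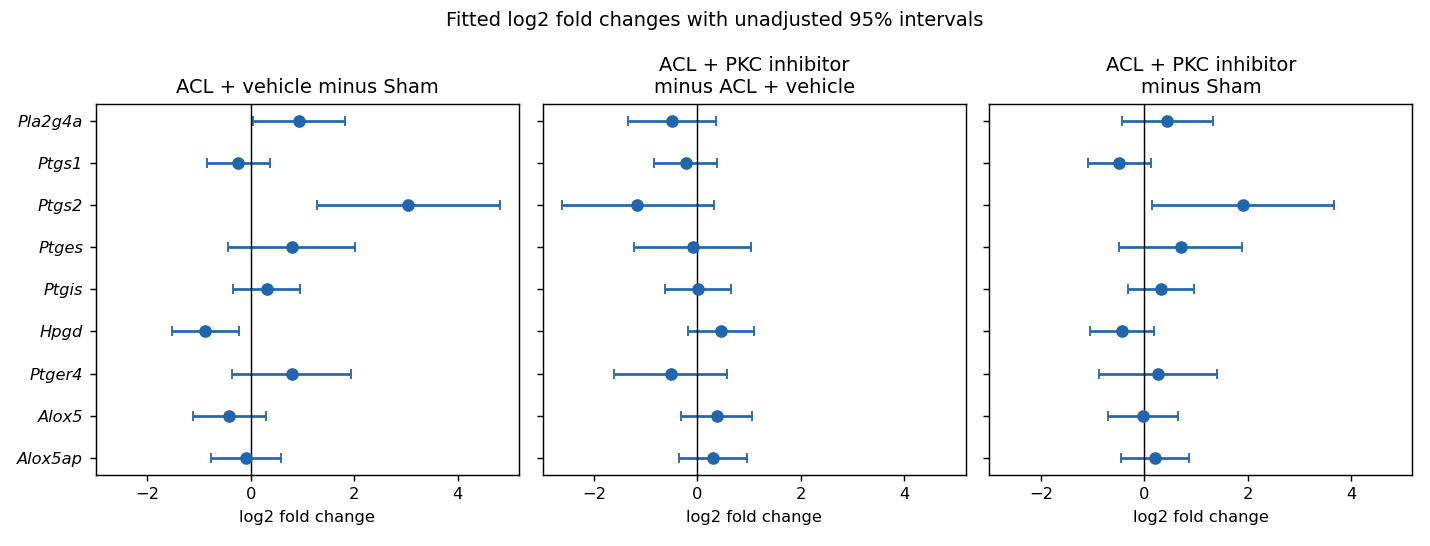
Log2 fold changes of the 9 tested genes (x axes) with unadjusted 95% intervals, for vehicle against sham, inhibitor against vehicle and inhibitor against sham. The intervals of Ptgs2, Hpgd and Pla2g4a exclude 0 for vehicle against sham and that of Ptgs2 for inhibitor against sham, while no gene has an adjusted p under 0.05.

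Taken over the 9 tested genes, the median log2 fold change was 0.31 for vehicle against sham, with 5 of 9 positive, beside a median of -0.02 and 48.1% positive over all tested genes. It was -0.09 with 4 of 9 positive for inhibitor against vehicle, beside 0.04 and 53.8%, and 0.27 with 6 of 9 positive for inhibitor against sham, beside 0.03 and 52.4%.

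Levels can be ranked between genes only per length of exon. On the scale of normalised counts per kb of exon, Alox5ap had the highest mean of the 10 transcripts in each group, at 144 ± 53.1 in inhibitor knees, 118 ± 19.3 in vehicle knees and 127 ± 48.7 in sham knees (SD, n = 3 each). Hpgd had the next highest means, at 60.6 ± 9.03, 44.5 ± 14.5 and 80.7 ± 30.4 counts per kb in inhibitor, vehicle and sham knees, and in sham knees its range of 53.8 to 114 overlapped that of Alox5ap, 73.9 to 170. Ptgis averaged 36.4, 35.5 and 29.0 in that order of groups, Alox5 25.5, 20.1 and 26.5, and Ptgs1 15.7, 18.4 and 22.1. Pla2g4a at 6.51, 9.32 and 4.89 and Ptgs2 at 5.78, 13.3 and 1.63 counts per kb had a different order of means in vehicle knees than in the other groups, and their ranges overlapped in injured knees. Ptges averaged 3.59, 3.83 and 2.17, Ptger4 3.02, 4.40 and 2.45, and Ptger2 1.55, 1.04 and 1.31 counts per kb. The ranges of neighbours such as Ptgis and Alox5 in inhibitor knees, or Ptges and Ptger4 in every group, overlapped, so their order is not resolved. In sham knees Ptgs2 ranked between Ptges and Ptger2, with 1.14 to 2.47 counts per kb against 1.44 to 3 for Ptges and 0.757 to 1.82 for Ptger2.

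The other genes of the eicosanoid pathway were taken from a list of 56, all of them present in the table, with Pla2g16 as Plaat3. Of these 32 were tested, and Ptgdr, Gpr17, Pla2g2a and Pla2g1b had no count in any library. The Cbr2 transcript was the only one to pass the threshold by edgeR, with 0 of 32 for vehicle against sham, 1 of 32 for inhibitor against vehicle and 1 of 32 between inhibitor and sham knees. The shares of all tested genes that passed were 0.304%, 0.731% and 3.95% in the same order. The count of 1 of 32 between inhibitor and sham knees is thus close to the background. Median log2 fold changes over the 32 were -0.05, 0.08 and 0.12 in these comparisons, and 14, 17 and 18 of 32 were positive.

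Cbr2, a carbonyl reductase listed with the prostanoid synthases and reductases, had 195, 175 and 178 normalised counts in inhibitor libraries, 81.4, 64.2 and 73.7 in vehicle libraries, and 97.7, 118 and 81.1 in sham libraries. Every inhibitor library was above every vehicle and sham library. By the fit Cbr2 rose 2.5-fold in inhibitor over vehicle knees (log2 fold change 1.32, SE 0.22, adjusted p = 0.0233) and 1.84-fold over sham knees (log2 fold change 0.88, SE 0.22, adjusted p = 0.0369). The call against vehicle was lost without vehicle 2 (1.22, adjusted p = 0.125), without vehicle 3 (1.33, adjusted p = 0.0803), when the fit held only the compared groups (1.32, adjusted p = 0.0615) and without inhibitor 1 and 2 together (1.29, adjusted p = 0.143). The call against sham was lost on leaving out any 1 of the 9 libraries, with adjusted p from 0.0509 to 0.136, and was also lost with the replicate block (adjusted p = 0.0641). Cbr2 differed between groups whose tissue markers differed too, with 0 of 11 tested cartilage markers positive for inhibitor against vehicle (median log2 fold change -1.55) and 0 of 7 B lineage markers (median -1.38). Other lists had mostly positive log2 fold changes for inhibitor against vehicle. Of the skeletal muscle markers 12 of 12 were positive (median 0.91), of the endothelial 8 of 9 (0.74) and of the adipocyte 6 of 7 (0.95). The sums of these lists were highest in inhibitor 1. In inhibitor 2 and 3 muscle markers summed to 3374 and 6899, below all vehicle libraries (7151 to 9293). Endothelial markers summed there to 588 and 527, also below all vehicle libraries (727 to 843). Adipocyte sums there, 510 and 631, lay within the vehicle range (454 to 1110). Of 14 monocyte and macrophage markers, 9 were positive for inhibitor against vehicle (median 0.23) and 13 for inhibitor against sham (median 0.60). The part of these tissue differences in the Cbr2 result was not tested.

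Slco2a1, the prostaglandin transporter that takes prostaglandins back into cells, had the smallest adjusted p of the 32 for vehicle against sham and was chosen after its values were seen. It had 44.3, 86.9 and 45.4 normalised counts in inhibitor libraries, 81.4, 41.6 and 105 in vehicle libraries, and 20.9, 34.1 and 26.4 in sham libraries. All 6 injured libraries were above all sham libraries. The Slco2a1 log2 fold change was 1.48 for vehicle against sham (SE 0.41, interval 0.61 to 2.35, adjusted p = 0.195), 1.14 for inhibitor against sham (SE 0.40, adjusted p = 0.135) and -0.34 for inhibitor against vehicle (SE 0.38, adjusted p = 0.732). Vehicle against sham passed with no filter (adjusted p = 0.0138), with only the compared groups (adjusted p = 0.0373) and without inhibitor 1 and 2 (adjusted p = 0.032). It did not pass with DESeq2 (adjusted p = 0.0778) or the replicate block (0.304), nor without any 1 library, where the adjusted p ran from 0.0554 to 0.668 and the Slco2a1 log2 fold change from 1.17, without vehicle 3, to 1.80, without vehicle 2. The other listed transporter, Abcc4, which exports prostaglandins, averaged 55.7 ± 19.7 in inhibitor knees, 85.3 ± 27.5 in vehicle knees and 83.8 ± 13.7 in sham knees (SD, n = 3 each). No Abcc4 comparison passed, and the nearest was inhibitor against sham (log2 fold change -0.57, adjusted p = 0.38).

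By role, 0 of 7 phospholipases, 0 of 3 prostanoid receptors, 0 of 5 lipoxygenase and leukotriene genes and 0 of 4 leukotriene and lipoxin receptors passed in any of the 3 comparisons. With 0.304% to 3.95% of all tested genes passing, a count of 0 in lists this short is close to the background. The most abundant phospholipase per kb of exon was Pla2g7, which inactivates platelet-activating factor, at 67.6 ± 27.0 normalised counts in inhibitor knees, 87.9 ± 18.4 in vehicle knees and 63.6 ± 5.85 in sham knees, with every vehicle library above every sham library (log2 fold change 0.47, SE 0.32, adjusted p = 0.751). Plaat3, chosen after its values were seen, averaged 76.5 ± 29.3 in inhibitor knees, 58.9 ± 7.39 in vehicle knees and 103 ± 7.42 in sham knees, with every vehicle library below every sham library (log2 fold change -0.80, SE 0.29, adjusted p = 0.389). Among the synthases the cytosolic prostaglandin E synthase Ptges3, also known as the co-chaperone p23, was the most abundant per kb, at 560 ± 113, 496 ± 37.4 and 393 ± 68.3 in inhibitor, vehicle and sham knees. Its vehicle libraries were all above the sham libraries (log2 fold change 0.33, SE 0.21, adjusted p = 0.729). The prostacyclin receptor Ptgir averaged 11.4 ± 3.61 normalised counts in inhibitor knees, 12.6 ± 8.24 in vehicle knees and 22.0 ± 8.15 in sham knees, with adjusted p from 0.455 to 0.965. Per kb over all libraries Ptgir was at 4.59 and the prostaglandin F receptor Ptgfr at 4.29, an order that is not resolved.

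In the leukotriene branch Cotl1, an actin-binding protein that also binds 5-lipoxygenase, averaged 745 ± 363 in inhibitor knees, 570 ± 121 in vehicle knees and 500 ± 47.6 in sham knees. Lta4h, the hydrolase that forms leukotriene B4, averaged 213 ± 65.8, 208 ± 26.2 and 281 ± 38.9 in the same order, with every vehicle library below every sham library (log2 fold change -0.43, SE 0.23, adjusted p = 0.658). The receptor Fpr2 averaged 83.4 ± 47.1 in inhibitor knees, 56.6 ± 21.7 in vehicle knees and 85.5 ± 25.6 in sham knees, but its exons overlap those of Fpr3 on the same strand, so its reads are uncertain. Ephx2, the soluble epoxide hydrolase, had 33.8, 6.62 and 10.4 normalised counts in inhibitor libraries, 1.66, 7.13 and 5.46 in vehicle libraries, and 19.8, 11.8 and 39.6 in sham libraries. Vehicle libraries were below all sham libraries and rest on 1 to 6 reads each (log2 fold change -2.21, SE 0.79, interval -3.89 to -0.53, adjusted p = 0.377). The Ephx2 log2 fold change for inhibitor against vehicle, 1.75 (adjusted p = 0.344), moved to 0.72 without inhibitor 1. Of the 32 genes, 4 lay higher without overlap and 3 lower for vehicle against sham, 2 and 0 for inhibitor against vehicle, where 8.44% of all tested genes lay higher without overlap, and 2 and 0 between inhibitor and sham knees. For vehicle against sham the higher ones were Slco2a1, Ptges3, the phospholipase Pla2g7 and the thromboxane synthase Tbxas1, and the lower ones Plaat3, Lta4h and Ephx2. For inhibitor against vehicle they were Cbr2 and the reductase Akr1b3 (152 ± 19.9 in inhibitor knees and 103 ± 10.2 in vehicle knees, adjusted p = 0.436), and between inhibitor and sham knees Cbr2 and Slco2a1. Lack of overlap in either direction was found in 17.0%, 18.9% and 22.9% of all tested genes in these comparisons.

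**Figure D4:**
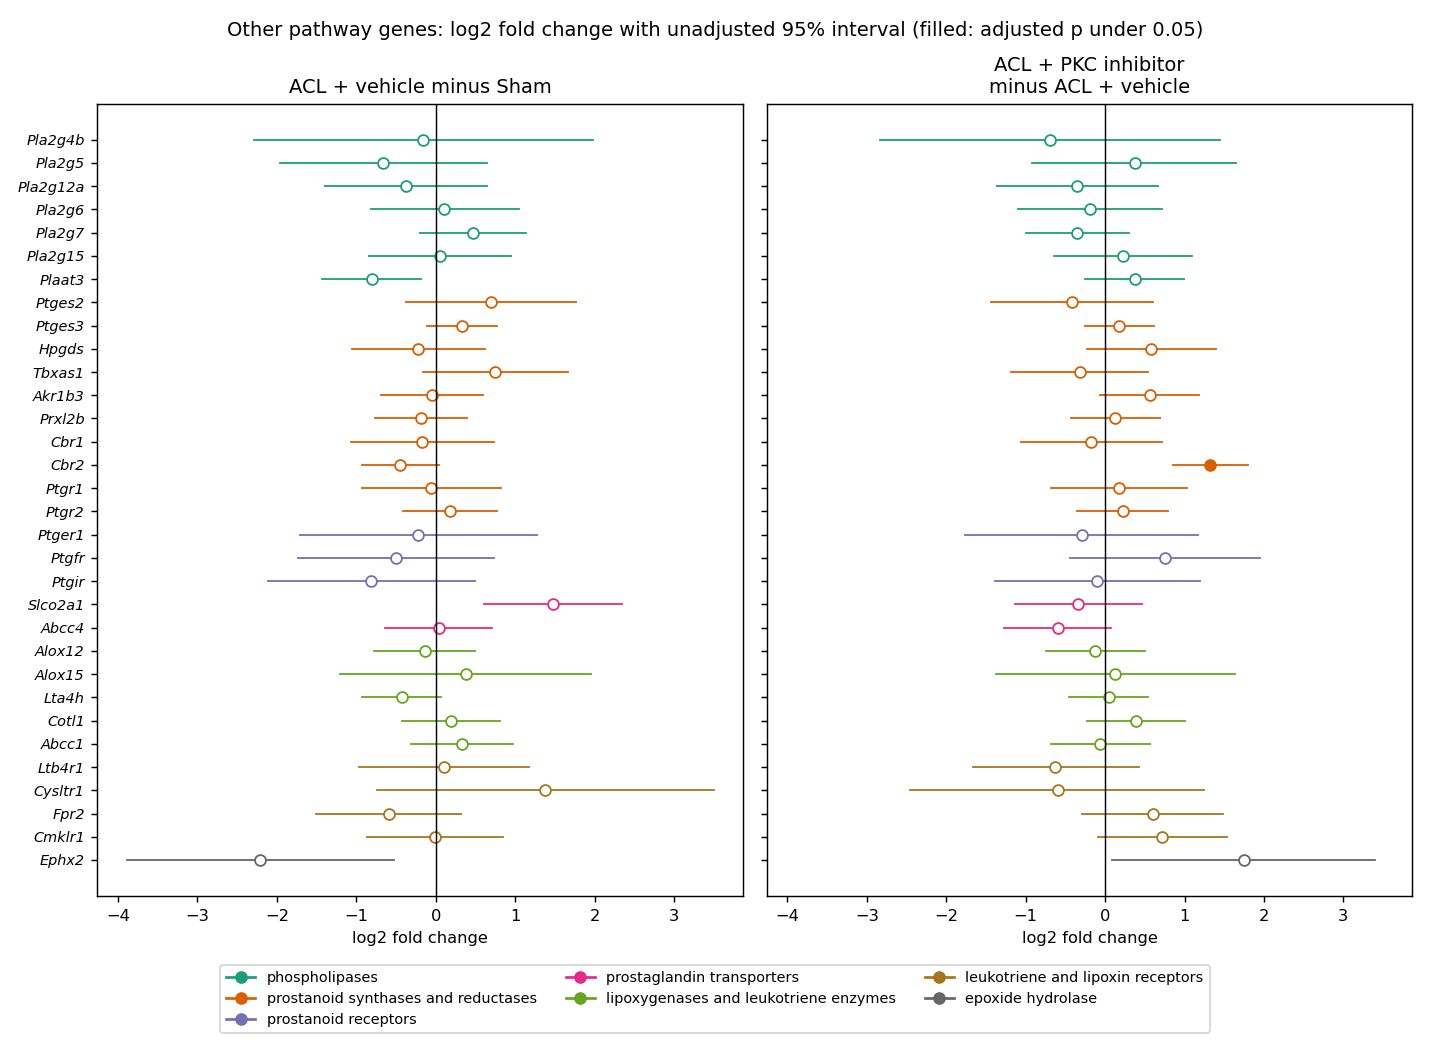
Log2 fold changes of the 32 other tested pathway genes (x axes) with unadjusted 95% intervals, coloured by role, for vehicle against sham on the left and inhibitor against vehicle on the right, where a filled point has an adjusted p under 0.05. Cbr2, at 1.32 on the right, is the only filled point, and intervals exclude 0 for Slco2a1 (1.48), Plaat3 (-0.80) and Ephx2 (-2.21) on the left and for Cbr2 and Ephx2 (1.75) on the right.

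Profiles most like those of the genes whose groups did not overlap were ranked by the root mean square difference of centred log2 CPM (counts scaled to library size) over the 9 libraries, among 13221 genes. For Ptgs2 they were Osm, the cytokine oncostatin M (0.46), Socs3, a feedback inhibitor of cytokine signalling (0.50), and Slc7a11, a cystine transporter (0.51), against a median of 1.42 over all genes compared. Osm averaged 34.7 ± 27.8 normalised counts in inhibitor knees, 79.6 ± 42.9 in vehicle knees and 20.1 ± 3.94 in sham knees, and Socs3 244 ± 172, 301 ± 97.2 and 73.9 ± 6.98 in the same order (SD, n = 3 each). Like Ptgs2, both were lowest in sham knees and varied most in relative terms in inhibitor knees. For Ptges the nearest were Zmym5 (0.14), Noct (0.16) and Uso1 (0.18), against a median of 0.57. For Alox5 they were the leukocyte cytoskeleton genes Arhgdib and Coro1a (0.17 each) and Fbxl5 (0.18), against 0.58, and for Ptgs1 they were Herc4 and Ppp1r10 (0.12 each) and Rnf20 (0.13), against 0.52. These libraries share depth and composition differences, and the ranking is a description.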

How the data were processed

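Knee joint RNA was isolated with TRIzol, and after removal of ribosomal RNA paired ends of 100 bp were sequenced with the DNBSEQ-G400 instrument, as the labels' protocols state. The values used are raw counts per gene name as deposited, made with featureCounts 2.0.1 on GENCODE M25 exons and the reverse strand, per the file headers. Reads mapping to several places were counted at each of them, and reads over several genes for each gene, per the file headers. The submitters' processing notes name HISAT2, without a version, and mm10. Columns were assigned by name, and their order differs from that of the input files in the recorded command. Another 27 columns of the deposited tables match no sample label and were not used. None of the 10 genes shares exons on its own strand with another gene, but Ptgs1, Ptgis, Ptger2, Ptger4 and Alox5ap do on the opposite strand.

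All further steps were run here. Genes were filtered with filterByExpr (minimum count 10), the 9 libraries were scaled by TMM (trimmed mean of M values) and fitted together in edgeR 4.0.16 with R 4.3.3, and each comparison was a two-sided robust quasi-likelihood F test with Benjamini-Hochberg adjustment over 13823 genes. Of 55291 genes 28362 had no count. Standard errors were taken as the size of the log2 fold change over the root of its F statistic. DESeq2 1.42.0, RLE scaling, no filter, no 7SL genes, protein-coding genes only, only the compared groups, a replicate block and left-out libraries were the alternatives. Gene types came from GENCODE M21 (53292 genes matched, 54377 with RefSeq). Ratios used scipy 1.17.1, tables pandas 2.3.3 and numpy 2.4.6 and plots matplotlib 3.10.9, in Python 3.11.15. The count test was also run on simulated counts, which held no tissue differences between libraries and so do not cover them. No pair of libraries within a group was identical or agreed within sampling noise.

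The text names the 10 genes, each other pathway gene past the threshold, the most abundant per kb by role, the 3 nearest profiles (mean normalised count of at least 10) of genes whose groups did not overlap. Other pathway genes are named where their groups did not overlap and were chosen after their values were seen. The 10 genes and all lists were chosen with earlier results of these data known.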

Additional observations from a re-analysis of the deposited data

How the results depend on the processing

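Of 27 fold changes (9 genes in 3 comparisons) under 456 alternatives, 428 kept their direction and their side of the threshold, 7 kept the direction and passed it, and 21 changed sign. The 7 were all of Ptgs2. No sign changed for 18 of the 27, among them all of Ptgs1, Ptgs2, Ptges and Hpgd. The log2 fold changes that changed sign did so near 0 in most cases, and the cause was not tested. Without any 1 library, Alox5 ran from -0.20 (without inhibitor 2) to 0.61 against vehicle in inhibitor knees, and Alox5ap from -0.06 (without inhibitor 2) to 0.48. For inhibitor against sham, Alox5 ran from -0.59 to 0.21, with the sign changed without inhibitor 1 (0.15), inhibitor 3 (0.21) or sham 1 (0.14), and it was 0.03 with no filter. Alox5ap ran from -0.13 (without inhibitor 2) to 0.47 with -0.07 without sham 2, Pla2g4a from -0.07 (without inhibitor 2) to 0.70, Ptger4 from -0.15 (without sham 3) to 0.91 and Ptgis from -0.02 (without inhibitor 3) to 0.51. Without inhibitor 1 and 2, Alox5 was -0.37 and Alox5ap -0.22 against vehicle, and Alox5ap was -0.30 and Pla2g4a -0.06 against sham. Ptgis against vehicle was -0.0049 with the replicate block and ran from -0.33 (without inhibitor 3) to 0.21 without 1 library, with -0.11 without vehicle 1 and -0.06 without vehicle 2. Alox5ap for vehicle against sham ran from -0.37 to 0.17 (without sham 3), with 0.04 without vehicle 1.

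Counts over all genes moved more. For vehicle against sham 42 genes passed, 155 with DESeq2, 262 with no filter, 291 with only the compared groups, 24 with the replicate block, 301 without inhibitor 1 and 2, and 1 to 234 without any 1 library. For inhibitor against vehicle 101 passed, 355, 554 and 3 under the first 3 of these settings, 20 without inhibitor 1 and 2, and 0 to 256 without 1 library. For inhibitor against sham 546 passed, 885, 1056 and 198 under those 3 settings, 174 without inhibitor 1 and 2, and 141 to 841 without 1 library. Among the 9 genes the count for vehicle against sham was 0, and 1 (Ptgs2) with DESeq2, no filter, only the compared groups or without inhibitor 1 and 2, with 0 to 1 without 1 library. For inhibitor against sham it was 1 with no filter and 0 to 1 without 1 library. Among the other pathway genes, vehicle against sham gave 1 (Slco2a1) with no filter, only the compared groups or without inhibitor 1 and 2. Inhibitor against vehicle gave 0 with only the compared groups or without inhibitor 1 and 2, and 0 to 1 without 1 library. Inhibitor against sham gave 2 with no filter, 0 with only the compared groups, the replicate block or without inhibitor 1 and 2, and 0 to 1 without 1 library, the 1 being Cotl1 without inhibitor 1. Ptges in both comparisons with sham, and Ptgs2 in inhibitor against sham, did not pass the filter with only the compared groups and have no value there.

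Deviations from group means of libraries with the same replicate number correlated at -0.24 to 0.07, and those of libraries with different numbers at -0.17 to 0.2. With 3 libraries per group these values cannot decide whether the numbers pair libraries. With the block, 103 genes passed for inhibitor against vehicle and 420 between inhibitor and sham knees, and the block changed no call among the 9 genes. Ratios of Ptgs2 to Ptgs1 and of Ptges to Hpgd kept their sign with any 1 library left out and with 2 counts added in place of 0.5. Depth limits the low transcripts most, since Ptgs2 in sham knees, Ptges, Ptger4 and Ptger2 rest on few reads per library.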
